A study of Mus musculus with 8 samples.

Results

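The genes described here are 37 genes of microglia and of the complement system, read from hippocampal RNA of 3 × Tg-AD mice that ate a diet with or without rosmarinic acid (RA). The list holds complement components, microglial receptors with their adaptors, lysosomal proteins, homeostatic microglial genes, leukocyte genes, and genes of macrophages or of microglia near plaques. The arrays carried 51 probe sets, sets of short probes designed against a shared transcript, that name 1 of these genes and no other, out of 45037 probe sets in all. They covered 34 of the 37 genes. C3 and Spp1 were not analysed here, because no probe set used here names either of them, and C4b was left out because its probe set names C4a as well.

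The series holds 4 control arrays and 4 RA arrays. All mice were male and of the 3 × Tg-AD strain, which carries transgenes for mutant amyloid precursor protein, tau and presenilin 1 and in which amyloid deposits and altered tau build up during ageing. The control group ate the AIN-93G diet and the RA group ate the same diet with 0.5% RA for 8 months, and tissue was taken at 10 months of age. No mouse without the transgenes was on an array, so a level in disease cannot be set against a level in health. The Methods name 4 mice per group and also pooled RNA, so an array may not stand for 1 mouse, and every error given here is the spread between arrays. With 4 arrays in a group, precision is limited throughout.

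Microglia are the resident macrophages of the brain. They survey the tissue through receptors such as the colony stimulating factor receptor Csf1r and the nucleotide receptor P2ry12, and they take up debris, synapses and protein deposits into lysosomes. Receptors that lack a signalling tail of their own, such as Trem2 and the Fc receptors, signal through the adaptors Tyrobp and Fcer1g. C1q, the first component of the classical complement cascade, is built from the products of C1qa, C1qb and C1qc, and in the brain microglia are its main source. Near amyloid plaques microglia are known to lower homeostatic genes such as P2ry12 and Tmem119 and to raise genes such as Cst7, Itgax and Clec7a. The transcription factor PU.1, the product of Spi1, is needed for the identity of these cells.

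The promoters of 5 measured genes are shown because 4 of them (C1qb, C1qc, Fcer1g and Lyz2) moved closely together over the arrays and the other, Ctsd, did not move with them. Each sequence holds the 250 bases before the gene's start in RefSeq (assembly GRCm38.p6), written 5′ to 3′ on the gene's strand. Capitals mark GAGGAA, a core of the PU.1 consensus, read on either strand (TTCCTC on the other), and CACGTG, the E-box, which reads the same on both strands and was chosen after these sequences were seen. C1qb and C1qc are neighbours on chromosome 4.
C1qb, chr4:136886201-136886450, minus strand: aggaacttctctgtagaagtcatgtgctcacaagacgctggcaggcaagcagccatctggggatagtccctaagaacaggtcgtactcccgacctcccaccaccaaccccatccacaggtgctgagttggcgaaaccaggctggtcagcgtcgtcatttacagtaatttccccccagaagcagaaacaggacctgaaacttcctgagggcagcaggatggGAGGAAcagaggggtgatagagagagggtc
C1qc, chr4:136892915-136893164, minus strand: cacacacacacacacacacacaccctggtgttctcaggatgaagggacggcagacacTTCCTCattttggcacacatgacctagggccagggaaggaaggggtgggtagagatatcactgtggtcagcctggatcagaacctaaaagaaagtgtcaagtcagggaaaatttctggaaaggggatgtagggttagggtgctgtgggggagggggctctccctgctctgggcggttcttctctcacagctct
Fcer1g, chr1:171234350-171234599, minus strand: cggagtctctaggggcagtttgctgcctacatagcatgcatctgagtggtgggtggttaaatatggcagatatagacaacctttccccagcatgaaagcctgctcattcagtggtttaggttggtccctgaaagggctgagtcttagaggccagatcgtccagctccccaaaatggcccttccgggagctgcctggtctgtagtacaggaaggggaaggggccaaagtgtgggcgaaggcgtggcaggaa
Lyz2, chr10:117282273-117282522, minus strand: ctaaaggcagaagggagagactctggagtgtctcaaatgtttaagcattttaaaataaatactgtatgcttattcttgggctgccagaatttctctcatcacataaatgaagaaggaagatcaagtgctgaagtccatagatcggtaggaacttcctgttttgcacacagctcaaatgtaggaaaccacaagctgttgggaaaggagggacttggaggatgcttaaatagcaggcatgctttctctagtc
Ctsd, chr7:142387828-142388077, minus strand: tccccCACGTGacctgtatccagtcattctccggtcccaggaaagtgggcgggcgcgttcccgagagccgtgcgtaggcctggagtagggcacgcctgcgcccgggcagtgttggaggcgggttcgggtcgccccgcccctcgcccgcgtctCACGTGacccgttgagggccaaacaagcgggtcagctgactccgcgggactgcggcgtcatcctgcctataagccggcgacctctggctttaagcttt

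The table of promoters held 32 windows for 27 of the 37 genes. GAGGAA was found in 16 of the 32 windows (50.0%), against 23.3% of all 32851 windows. It was found in 8 of 15 windows of the measured genes and in 7 of 14 windows of the genes with nearly constant values. The measured genes with a match were C1qb, C1qc, Cd68, Ctss, Fcgr3, Mrc1 and Ptprc. The longer GAGGAAGT, which contains GAGGAA, was found for C1qc among the measured genes and in 2.44% of all windows. CACGTG occurred in 2 places in the Ctsd window and in 6.02% of all windows. It was also found for P2ry12 and Siglech, and for 7 of 19 other lysosomal genes with a window. A match is a run of letters and was not tested for binding.

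The arrays gave a measure of variation for 17 of the 34 genes (50.0%), against 13.7% of all 18193 genes on the array. The probe level data were summarised by the authors with FARMS, which draws a probe set to a constant when its probes share no variation over the arrays. These summaries, on the log2 scale, are the values given here. A probe set whose SD over the 8 arrays was at most 0.01 is called nearly constant, and its group difference is not a measurement. Of the 51 probe sets, 19 were above this limit (37.3%), against 8.34% of all probe sets. The nearest to it were Cx3cr1, with SDs of 0.0038 and 0.00997 in its 2 probe sets, and, above it, Cd68 with 0.0135 and Ctsz with 0.0315. The other 30 nearly constant probe sets had SDs of 8.76e-05 to 0.000363.

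The genes without a measure include most of those by which plaque-associated and homeostatic microglia are told apart. Trem2, the lipid receptor whose variants alter the risk of Alzheimer's disease, was nearly constant in both of its probe sets. The same held for Cst7, Itgax and Clec7a, which mark microglia near plaques, for P2ry13, Tmem119, Siglech and Gpr34, which mark homeostatic microglia, and for Aif1, a general marker of microglia and macrophages. The toll-like receptors Tlr2 and Tlr4, the lipopolysaccharide co-receptor Cd14, the transcription factors Spi1 and Irf8, the integrin Itgam, the lysosomal protein Laptm5 and the fractalkine receptor Cx3cr1 complete the 17 genes. Equal transcript levels cannot be read from a nearly constant value.

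**Figure D1:**
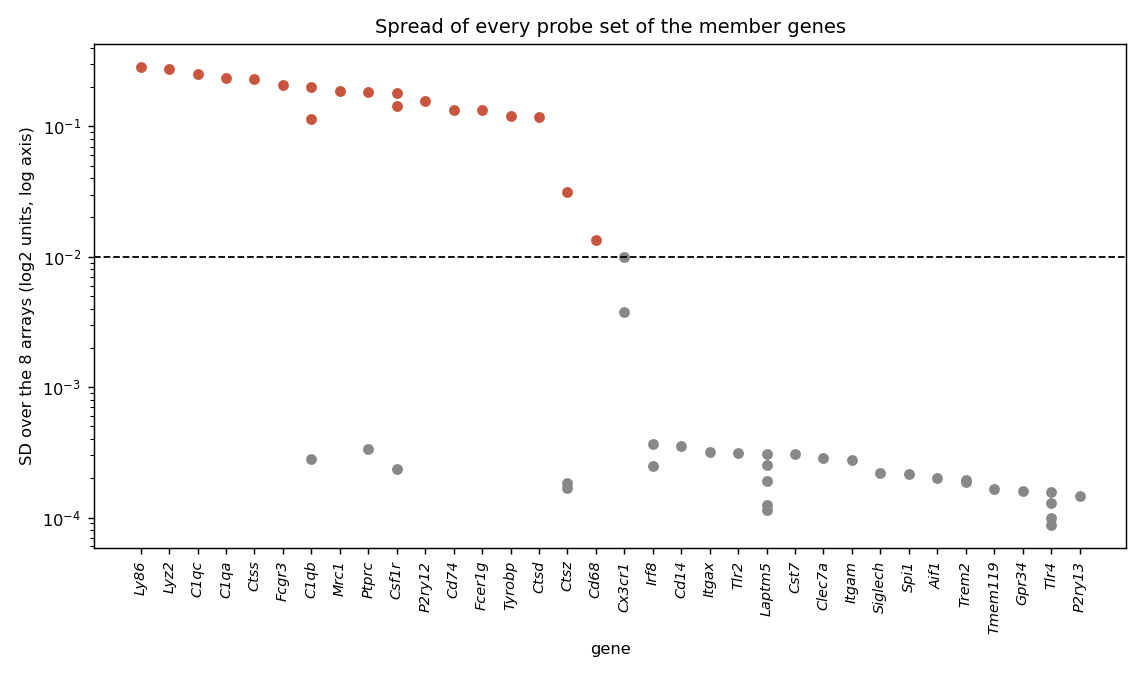
SD over the 8 arrays of each of the 51 probe sets, in log2 units on a log axis, by gene; red points lie above the limit of 0.01 (dashed line) and grey points are nearly constant. The 19 probe sets above the limit belong to 17 genes, and the Cx3cr1 probe sets lie closest below it.

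Complement C1q had higher group means in the RA group, but the groups overlapped in all 3 genes and none passed a test. In the control group C1qa had log2 values of 8.35, 8.26, 7.87 and 8.09, and in the RA group of 8.57, 8.40, 7.96 and 8.24, for arrays 1 to 4 in order. C1qb had 7.92, 7.95, 7.53 and 7.73 in the control group and 8.23, 7.93, 7.80 and 7.90 in the RA group. C1qc had 8.07, 8.05, 7.58 and 7.95 in the control group and 8.46, 8.11, 7.83 and 8.08 in the RA group. In all 3 genes control 3 was the lowest array and RA 1 the highest, and within the RA group RA 3 was the lowest.

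The log2 fold change (RA minus control) was 0.15 for C1qa (95% interval -0.24 to 0.54), 0.18 for C1qb (-0.13 to 0.49) and 0.21 for C1qc (-0.19 to 0.60), with adjusted p-values of 0.780, 0.666 and 0.701 from limma over all probe sets. With 1 array left out, the log2 fold change ranged from 0.06 to 0.26 for C1qa, from 0.10 to 0.24 for C1qb and from 0.09 to 0.30 for C1qc, lowest without RA 1 and, for C1qa and C1qc, highest without RA 3. Between the lowest and the highest array, the level of C1qc differed 1.84-fold and those of C1qa and C1qb 1.63-fold. A further measured probe set of C1qb averaged 7.16 in either group, with an SD of 0.0866 over the 4 control arrays and 0.150 over the 4 RA arrays, and RA 4 was its lowest array. In bulk tissue, fewer cells of a type and less RNA per cell cannot be told apart, and this holds for every gene described here.

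Of the receptors and their adaptors, the 5 measured genes also had higher means in the RA group, and none was called. Tyrobp had log2 values of 7.58, 7.61, 7.35 and 7.47 in the control group and 7.76, 7.60, 7.48 and 7.53 in the RA group. Fcer1g, the common gamma chain of Fc receptors, had 7.12, 7.12, 6.85 and 7.06 in the control group and 7.31, 7.18, 7.05 and 7.17 in the RA group. Both adaptors followed the order seen for C1q, with control 3 lowest and RA 1 highest. The low-affinity immunoglobulin receptor Fcgr3 had 6.72, 6.63, 6.34 and 6.85 in the control group and 7.001, 6.82, 6.49 and 6.68 in the RA group, so that control 4 stood within the upper RA values. Ly86, which associates with the toll-like receptor homologue Cd180, had control values between 7.53 and 7.63 and RA values of 8.36, 7.51, 7.47 and 7.64. Its difference (log2 fold change 0.16, standard error 0.199) rested on RA 1, and without that array it was -0.04.

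Csf1r, the receptor on which microglia depend for survival, had 9.24, 9.07, 8.77 and 8.91 in the control group and 9.23, 9.22, 9.22 and 8.93 in the RA group. Here 3 RA arrays were nearly equal and RA 4 lay with the lower controls. In a further measured probe set of Csf1r the RA values were 8.36, 8.43, 8.18 and 8.31, with RA 3 the lowest. This further probe set differed by 0.16 on the log2 scale (standard error 0.0843). It had the lowest unadjusted p of all measured probe sets of the list, 0.108 (adjusted p = 0.575, limma). The log2 fold changes of Tyrobp, Fcer1g and Fcgr3 were 0.09 (standard error 0.0811), 0.14 (0.0808) and 0.11 (0.147). For the purinergic receptor P2ry12, the only measured homeostatic gene, control values were 7.73, 7.51, 7.47 and 7.61 and RA values 7.72, 7.89, 7.85 and 7.54. Its log2 fold change was 0.17 (standard error 0.0939, adjusted p = 0.583, limma). P2ry12 did not follow the order of C1q, since RA 2 and RA 3 were its highest arrays.

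Lysosomal and protease genes differed among themselves. Lysozyme Lyz2 had 6.63, 6.57, 6.20 and 6.47 in the control group and 6.93, 6.94, 6.22 and 6.58 in the RA group, and its log2 fold change was 0.20 with a standard error of 0.188. RA 1 and RA 2 were high while RA 3 lay at the level of control 3. Signal from the close copy Lyz1 cannot be told apart with certainty. Cathepsin S, Ctss, had 9.45, 9.62, 9.21 and 9.28 in the control group and 9.81, 9.20, 9.16 and 9.42 in the RA group, and the group means were 9.39 and 9.40. RA 1 was its highest array and RA 3 its lowest, so that the RA group spanned the control group. Cathepsin D, Ctsd, had 9.47, 9.41, 9.68 and 9.42 in the control group and 9.54, 9.39, 9.59 and 9.68 in the RA group. Here control 3, the lowest array for C1q, was the highest, together with RA 4. Cathepsin Z, Ctsz, ranged from 7.45 to 7.54 and Cd68, a lysosomal membrane protein of macrophages, from 5.99 to 6.03, which leaves little to compare.

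Of the leukocyte, antigen presentation and macrophage genes, Ptprc, Cd74 and Mrc1 were measured. Ptprc, the leukocyte common antigen CD45, had 5.996, 5.99, 5.59 and 5.88 in the control group and 6.08, 6.10, 5.76 and 5.71 in the RA group, with control 3 the lowest. Cd74, the invariant chain of class II histocompatibility molecules, had 6.08, 6.37, 6.28 and 6.06 in the control group and 6.23, 6.35, 6.19 and 6.43 in the RA group, an order unlike that of C1q. The mannose receptor Mrc1, which in brain marks macrophages of vessels and meninges rather than microglia, had 5.81, 5.79, 5.54 and 5.72 in the control group and 5.72, 6.20, 5.85 and 5.73 in the RA group. RA 2 stood above the other arrays and control 3 below them. The log2 fold changes were 0.05 for Ptprc (standard error 0.134), 0.10 for Cd74 (0.0894) and 0.16 for Mrc1 (0.122).

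**Figure D2:**
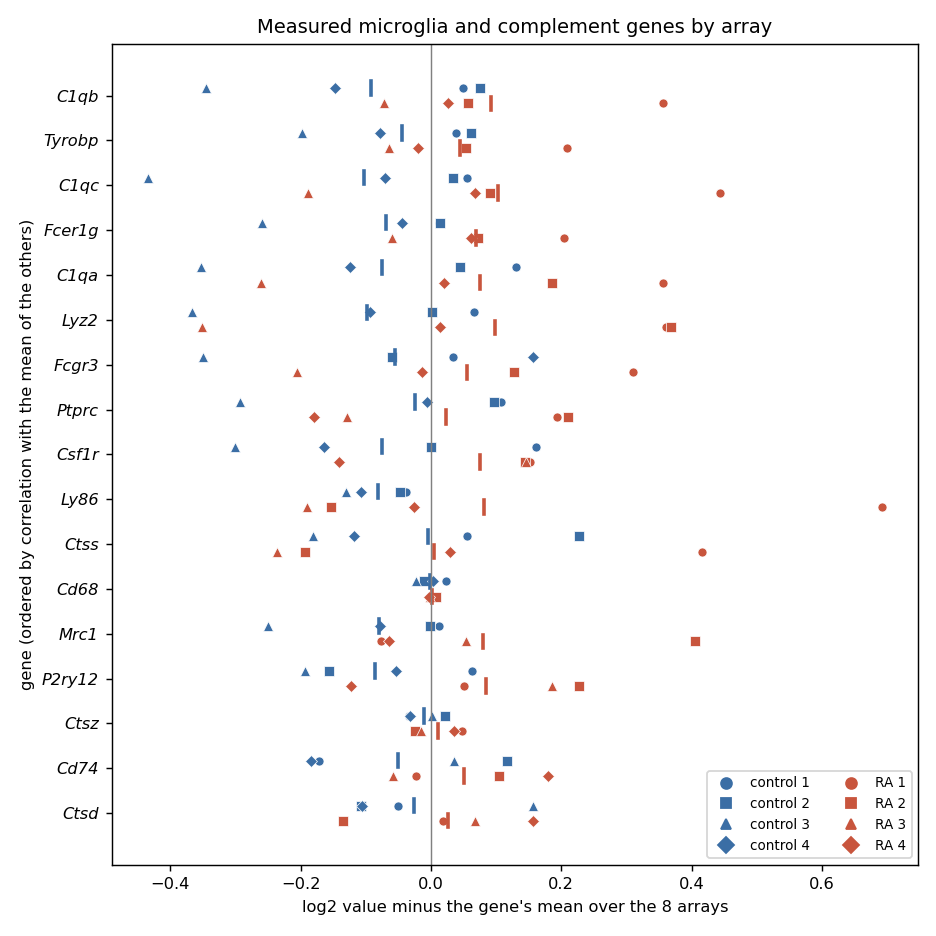
Log2 value of each of the 17 measured genes on each array, minus the gene's mean over all 8 arrays; blue symbols are control arrays, red symbols RA arrays, and vertical ticks the group means. Control 3 (blue triangles) lies lowest in 12 genes and RA 1 (red circles) highest in 9, and the groups overlap in every gene.

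No probe set of the list was called. The rank product, the test named in the Methods, ranks probe sets within each of the 16 pairings of RA with control arrays, and a call needed a proportion of false positives, as estimated by permutation, below 0.05. It called 411 of all 45037 probe sets higher (0.913%) and 259 lower (0.575%), and none of the 51 here. All calls fell on probe sets that vary, of which 10.9% were called higher and 6.89% lower, and none of the 19 measured probe sets of the list was among them. With limma 0 probe sets passed an adjusted p of 0.05, in the list and among all probe sets (0%). At an unadjusted p under 0.05 it gave 10.1% of all probe sets, 9.66% of those that vary, none of the 19 measured here and 1 nearly constant probe set of Laptm5. The closest to a call was C1qc, with an estimated proportion of false positives of 0.0505, followed by Lyz2 with 0.0591. Without control 1 the rank product called 6 genes of the list higher (C1qa, C1qb, C1qc, Csf1r, Lyz2 and P2ry12), with 2.14% of all probe sets called higher. Without control 4 it called C1qc, with 1.06%. Both shares are over all probe sets, of which 8.34% vary, against 37.3% of the 51 here. The shares among probe sets that vary were not computed for these fits, so no excess in the list can be read from the counts. The groups overlapped in all 17 genes, while 5.93% of all 2496 measured genes, and 5.59% of measured probe sets, had groups that did not.

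**Figure D3:**
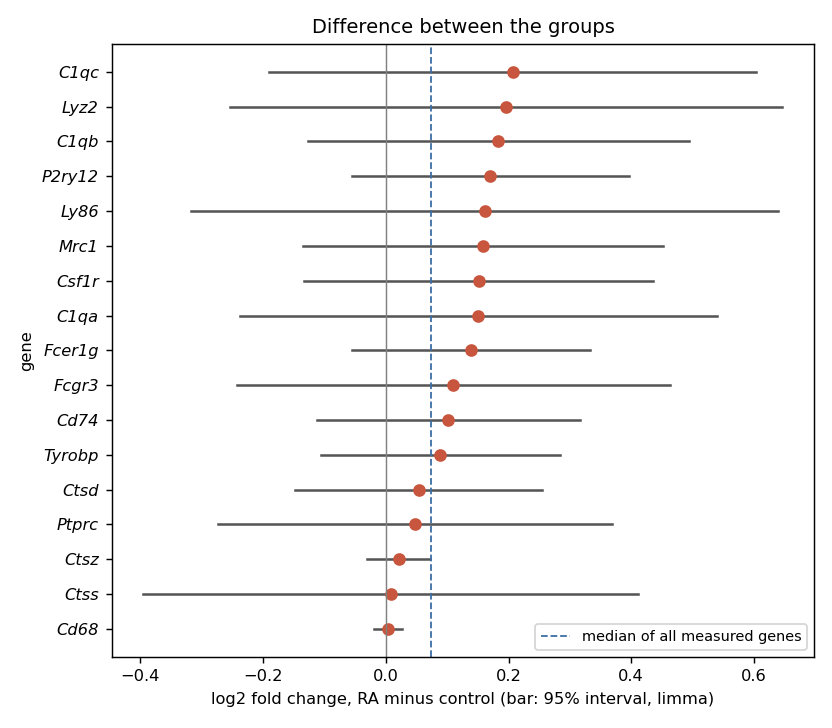
Log2 fold change (RA minus control) of the 17 measured genes, with bars for limma's 95% interval and a dashed line at the median of all measured genes, 0.07. Every point lies above 0, from 0.00 for Cd68 to 0.21 for C1qc, and every interval includes 0; Cd68 falls below 0 after quantile normalization or subtraction of array medians, and Ctss after quantile normalization.

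The mean was higher in the RA group in all 17 measured genes, taking the measured probe set with the highest mean for each gene, and in 15 after quantile normalization and 16 after subtraction of array medians. The RA mean was the higher in 74.5% of all measured genes (73.1% of measured probe sets), so that the count of 17 is to be read against a lean of the whole array. The median log2 fold change was 0.14 in the list and 0.07 over all measured genes. Without control 3, 14 of 17 genes were higher in the RA group (82.4%), against 69.0% of all measured genes, with medians of 0.08 and 0.05. Without RA 1 it was also 14 of 17, against 73.3%, with medians of 0.06 in the list and 0.08 over all measured genes. Without both, 9 of 17 genes were higher (52.9%), with a median of 0.01. This was below the 68.7% and the median of 0.05 over all measured genes on the same arrays. Leaving out control 3 and RA 1 together was chosen after the values were seen, and since these are the lowest control array and the highest RA array for the same genes, their removal by itself draws the difference towards 0.

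Over the arrays, C1qa, C1qb, C1qc, Tyrobp and Fcer1g varied closely together. The Pearson correlations among these 5 genes, over 8 arrays, ran from 0.921 to 0.987 (Spearman 0.810 to 1). C1qb and Tyrobp had the closest pair, at 0.987 (Spearman 1), so that all 8 arrays stood in the same order for the 2 probe sets used. C1qb was read here from its probe set of highest mean. The further measured probe set of C1qb had a correlation of 0.782 with it and was not set against the other genes. With each group centred on its own mean the 10 pairs had correlations of 0.919 to 0.991, and without control 3 and RA 1 of 0.696 to 0.956. The 5 genes were set apart after the values were seen, they share the same 8 hybridisations, and the correlations are a description.

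Lyz2, Fcgr3 and Ptprc came next, with correlations of 0.886, 0.787 and 0.783 to the mean of the other measured genes of the list. Without control 3 and RA 1, Lyz2 kept 0.834, Ptprc had 0.504 and Fcgr3 0.163. Ctss and Ly86 had a correlation of 0.838 with each other (Spearman 0.905), with 0.868 without control 3 and RA 1. They did not stand apart from the C1q genes and adaptors, since Ctss had 0.788 with Tyrobp and Ly86 had 0.770 with C1qc. Without control 3 and RA 1 these were 0.548 and 0.631. Csf1r and P2ry12 had 0.816 (Spearman 0.690), with 0.772 without these arrays. P2ry12 also had 0.775 with Mrc1 (Spearman 0.786), with 0.748 without these arrays, and Csf1r had 0.742 with Ptprc. These pairs were named after the values were seen. The correlations of Csf1r rest on its probe set of highest mean. The further measured probe set of Csf1r had a correlation of 0.683 with it and was not set against P2ry12 or Ptprc. Of the 16 correlations of Ctsd 13 were below 0, with a median of -0.395 and the lowest, -0.807, with Ptprc. Without control 3 and RA 1 the median was -0.200, and 10 of these 13 correlations lay nearer to 0, among them those with C1qb (from -0.306 to -0.0771) and Fcer1g (from -0.350 to -0.00156), while that with Ptprc was -0.890. Cd74 had a median correlation of 0.0917 with the other genes.

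Over all 136 pairs of the 17 genes, the median correlation was 0.502, against 0.0522 over all pairs of the 2496 measured genes. It was 0.482 with the groups centred on their own means, against 0.0147 over all genes, so the co-variation was present within the groups. Correlations over 0.8 made up 17.6% of the pairs in the list and 9.50% over all genes. Without control 3 the median of the list was 0.298, and without control 3 and RA 1 it was 0.292, against 0.0405 over all genes. The share over 0.8 turned around without these arrays, to 7.35% of the pairs in the list against 11.2% over all genes.

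**Figure D4:**
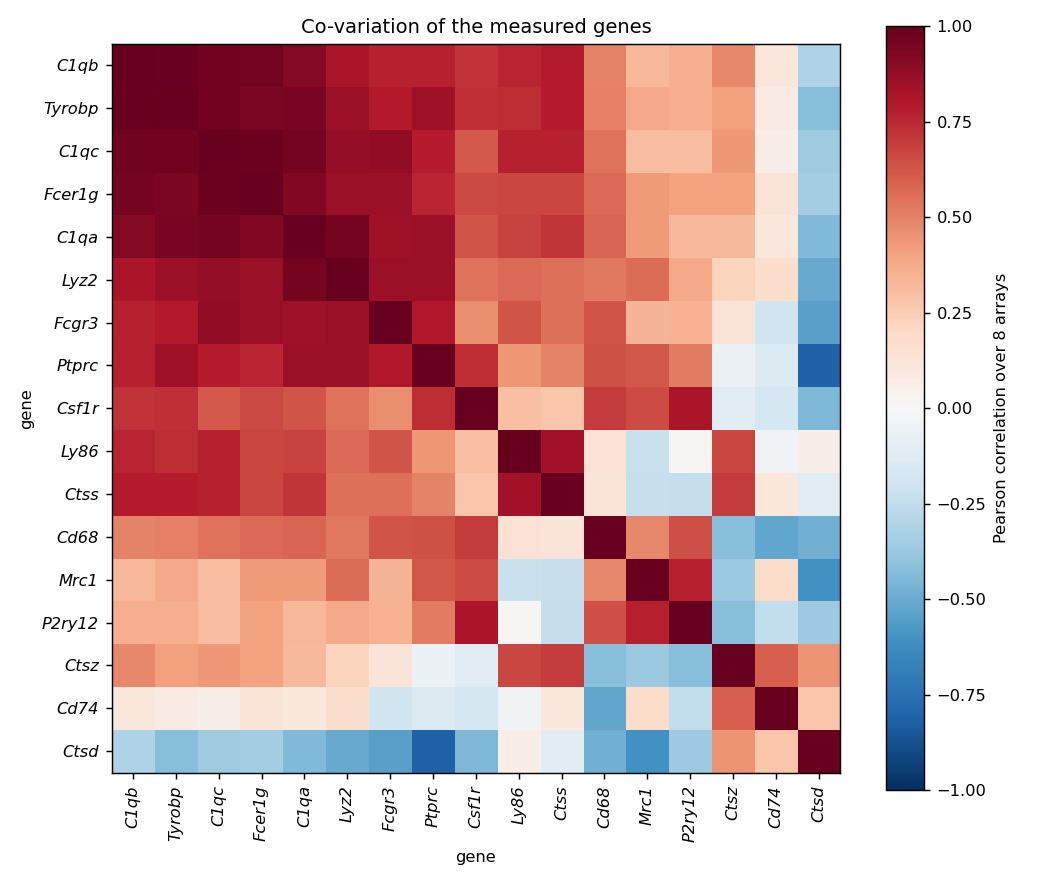
Pearson correlation over the 8 arrays between each pair of the 17 measured genes, ordered by their correlation with the mean of the others (red positive, blue negative). The block at the upper left holds C1qb, Tyrobp, C1qc, Fcer1g and C1qa with values of 0.921 to 0.987, and Ctsd in the last row is negative with 13 of 16 genes.

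The array that stood lowest was control 3 and the highest was RA 1. Averaged over the 17 genes, the deviation from each gene's own mean was 0.03, 0.02, -0.20 and -0.07 in control arrays 1 to 4 and 0.22, 0.09, -0.08 and 0.00 in RA arrays 1 to 4. Control 3 was the lowest of all arrays in 12 of the 17 genes and RA 1 the highest in 9. Over all 2496 measured genes the mean deviations lay between -0.05 and 0.05, with control 3 the lowest and RA 3, not RA 1, the highest. For the C1q genes alone, the mean deviation was -0.38 in control 3 and 0.39 in RA 1, and the other arrays lay between -0.17 and 0.11.

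Markers of other cell types also differed between these arrays. The 9 measured choroid plexus genes were all called higher by the rank product, against 11% of all measured genes. Their groups overlapped in every gene, and the lowest adjusted p was 0.766 (limma). These 9 genes averaged 1.68 above their mean in control 3, 0.94 in RA 3 and 1.43 in RA 4, -0.07 in RA 1 and -0.95 to -1.05 in the other arrays. Ctsd had a correlation of 0.972 with this average over the 8 arrays (0.965 without control 3 and RA 1) and Ptprc of -0.857. The mean of the 17 microglia and complement genes had a correlation of 0.712 with the endothelial average (0.731 without control 3 and RA 1). It had 0.644 with the average of monocytes and neutrophils (0.346), 0.610 with the interferon average (0.337) and 0.511 with the astrocyte average (0.205). With the choroid plexus average it had -0.446 (-0.261) and with the hippocampal neuron average -0.403 (-0.583). With the meningeal fibroblast average it had 0.128 (0.583) and with the oligodendrocyte average -0.136 (-0.291). The oligodendrocyte average ran from -0.66 in RA 2 to 0.44 in control 2. The part of these cells in the mean of the 17 genes was not tested. Ctsd was the gene of the list nearest to the choroid plexus average, and the part of choroid plexus tissue in its values was not tested. The 3 measured endothelial genes averaged -0.35 in control 3 and 0.47 in RA 2, and Mrc1 had a correlation of 0.933 with them (0.983 without control 3 and RA 1). F13a1, the only measured gene of 12 of border-associated macrophages, was called higher by the rank product, and its groups overlapped. Its log2 fold change was 0.24 (standard error 0.179, adjusted p = 0.688, limma). It had its highest value, 6.28, in RA 2 as well, and meningeal fibroblast genes averaged 0.67 there. Their part in the value of Mrc1 was not tested.

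Among genes of blood leukocytes, those of lymphocytes gave no measure and some of those of monocytes and neutrophils did. None of 11 genes of T and B lymphocytes with a probe set varied, and 3 of 12 genes of monocytes and neutrophils did, with averages of -0.17 to 0.28 in the control arrays and -0.21 to 0.23 in the RA arrays. Their highest array was control 2, where the 10 measured interferon response genes were also highest (0.69, against 0.38 in RA 1). Ctss had a correlation of 0.806 with the interferon average and P2ry12 of -0.304. Astrocyte genes averaged -0.12 to -0.02 in the control arrays and -0.0036 to 0.11 in the RA arrays. All 12 genes of hippocampal neurons varied, and their averages lay between -0.40 and 0.23, with control 1 and RA 2 the lowest.

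**Figure D5:**
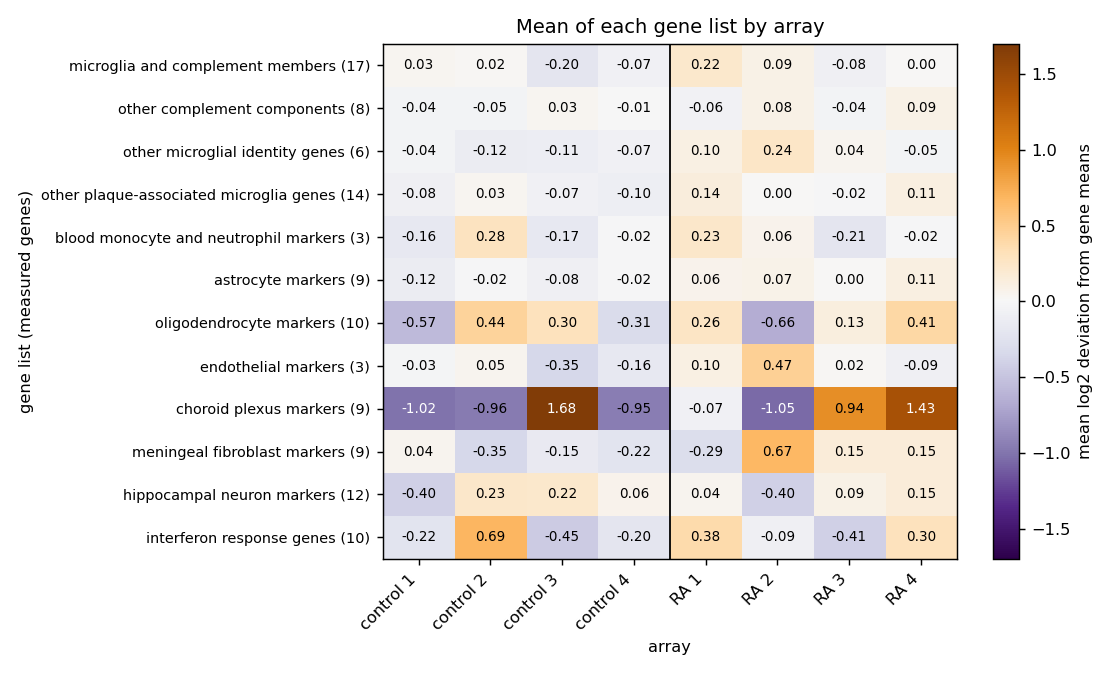
Mean deviation of the gene lists shown from their genes' own means, in log2 units, on each array, with the number of measured genes in parentheses. Lists of border-associated macrophage, lymphocyte, red blood cell and lysosomal genes and of signals to microglia are not shown. The microglia and complement genes run from -0.20 in control 3 to 0.22 in RA 1, while the choroid plexus genes run from -1.05 in RA 2 to 1.68 in control 3.

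Further genes of these pathways were taken from lists beyond the 37. Of 45 other microglial identity genes, 42 had a probe set, 6 were measured, and the rank product called 3 higher and none lower, against 11% of all measured genes called higher and 6.37% called lower. Rgs10, a regulator of G protein signalling that is abundant in microglia, had 7.81, 7.67, 7.55 and 7.69 in the control group and 8.08, 7.93, 7.79 and 7.78 in the RA group, and its log2 fold change was 0.22 with a standard error of 0.0836. Olfml3 (0.23, standard error 0.0879) and the ribonuclease Rnase4 (0.33, standard error 0.160) were the others, and adjusted p-values from limma were 0.471, 0.468 and 0.539. Rgs10 and Olfml3 had correlations of 0.919 and 0.801 with the mean of the 17 genes, and Rnase4 of -0.00891. The groups overlapped in all 3.

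Over all measured genes 11% were called higher and 6.37% lower, and the calls in the following lists are to be read against these shares. Of 30 other genes of microglia near plaques, 14 of 29 with a probe set were measured and 1 was called higher, the cholesterol hydroxylase Ch25h. Its values were 5.45, 5.70, 5.53 and 5.44 in the control group and 6.42, 5.79, 5.54 and 5.63 in the RA group, so that RA 1 stood furthest above the controls and RA 3 and RA 4 lay among them. Of 32 other complement components, receptors and regulators, 8 of 27 were measured and 1 was called lower, the neuronal pentraxin Nptx1 (log2 fold change -0.33, standard error 0.113), whose product can bind C1q. The C1 inhibitor Serping1, named after its values were seen, differed by 0.29 on the log2 scale (standard error 0.229), with RA 2 highest at 7.10. Among 24 lysosomal genes 5 were measured, and Laptm4a was called higher (0.21, standard error 0.0565). A further probe set of the related Laptm4b was called lower (-0.57, standard error 0.203), while the probe set of higher mean used for Laptm4b differed by -0.01 (standard error 0.0474). Of the 19 signals to microglia and their partners 5 were measured, 3 with a higher and 2 with a lower mean in the RA group, and none was called. Those furthest from 0 were the growth arrest protein Gas6, which differed by 0.15 on the log2 scale (standard error 0.141), and the inhibitory ligand Cd200, by 0.13 (standard error 0.148), and those with a lower mean were Tgfb2 (-0.08) and the fractalkine gene Cx3cl1 (-0.07).

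Outside the list, the genes whose values followed the mean of the 17 genes most closely over the 8 arrays were Lyz1, Rgs10, Fcgr2b, Nkx2-2, Fos, Samd4, Rab3b, Podxl, Slc35f4 and Dusp1, with Pearson correlations from 0.958 for Lyz1 to 0.847 for Dusp1 among 3390 probe sets. Lyz1 and Fcgr2b are close copies of Lyz2 and Fcgr3 or of their family, so shared probe signal between them is uncertain. Rgs10 is a microglial gene, while Fos and Dusp1 are immediate early genes of neuronal activity. Fos and Dusp1 had correlations of 0.867 and 0.847, and of 0.646 and 0.602 without control 3 and RA 1. In all 10 the RA mean exceeded the control mean, as it did in 74.5% of all measured genes. The 10 were chosen by correlation with a mean that was itself higher in the RA group, so their direction is not a separate result. Correlations within the groups were not computed for these genes.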

How the data were processed

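Hippocampal RNA was hybridised to Affymetrix whole-genome mouse expression arrays, 4 per group. The deposited values are log2 summaries that the authors made with FARMS, and they were used without further scaling. The 64 control probe sets of the manufacturer were dropped, which left 45037, and 34945 of these carry a single gene symbol. Array medians lay between 5.829 and 5.835. The rank product (16 differences, 100 permutations, estimated proportion of false positives under 0.05) was computed in Python 3.11.15 with numpy 2.4.6. Log2 fold changes, standard errors, intervals and Benjamini-Hochberg adjusted p-values came from limma 3.58.1 in R 4.3.3, fitted over all probe sets. Both were also run on simulated data with independent noise and shifts larger than any difference in the list, so those runs do not bear on the results here. Every gene of the list was named, with the 10 genes nearest to the mean of the measured genes. Called genes were named for the further lists of microglial, complement, lysosomal and border-associated macrophage genes. For the lists of other cell types and of interferon response, averages were given, and single genes, some of them called, were not named. The genes and lists were chosen with earlier results of these data known. Alternatives were quantile normalization, subtraction of array medians, filters on the SD or mean, the mean of a gene's probe sets, a replicate block and leaving out arrays. p-values measure the spread between these arrays, which may be technical.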

Additional observations from a re-analysis of the deposited data

Results flagged for a closer look

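Csf1r in RA 4 had a log2 value of 8.93 in the probe set of highest mean, apart from the other RA arrays, of which the nearest was at 9.22. In the further measured probe set of Csf1r, RA 4 was at 8.31, between RA 3 at 8.18 and RA 2 at 8.43. In the first of these probe sets the gap was 0.976 of the range of the group, above Dixon's critical value for 4 samples. The value of 8.93 was the only one so marked among 34 groups (17 genes in each diet group), and chance marks about 1 in 20 groups.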

How the results depend on the processing

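The number of all probe sets called higher fell from 411 to 4 when only probe sets with an SD above 0.01 were ranked, to 51 with a filter on the mean, to 76 with a replicate block and to 0 with limma, and ranged from 19 (without RA 1) to 966 (without control 1) with 1 array left out. The number called lower went from 259 to 17 with the SD filter and to 0 with limma, and ranged from 138 to 317 with 1 array left out. Of the microglia and complement probe sets, 0 to 6 were called higher with 1 array left out and 0 lower. The replicate block called 0 of them and lowered the standard error of C1qa from 0.162 to 0.0256 (adjusted p = 0.564, limma). Over all measured probe sets only the arrays numbered 3 deviated together (correlations of same-numbered arrays -0.122, -0.328, 0.448 and -0.393), so the numbers were not taken to pair the arrays, although the mean of the 17 genes stood in the same order (1, 2, 4, 3) in both groups. The median log2 fold change of the 17 genes ranged from 0.057 to 0.17 and their median correlation from 0.298 (without control 3) to 0.566 with 1 array left out, and without control 3 and RA 1 these were 0.011 and 0.292. Of 221 values of single genes under the alternatives 209 kept their direction. Ctss was -0.0027 and Cd68 -0.0028 after quantile normalization, and Cd68 was -0.00011 after subtraction of array medians. With 1 array left out, Ctss ranged from -0.13 to 0.088, Cd68 from -0.0034 to 0.012, Ptprc from -0.043 to 0.12 and Ly86 from -0.042 to 0.25. The cause of these changes was not tested. Nearly constant probe sets limit what the arrays can show for 17 of the 34 genes.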
